A study of Arabidopsis thaliana with 22 samples.

Results

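The 42 loci described here are long noncoding loci of the Arabidopsis thaliana root with more reads in the differentiation zone (DZ) than in the meristematic-elongation zone (MEZ) of untreated plants. They were chosen among the 5224 loci of the deposited transcript table. After 6 loci with over 2% of the estimated reads of any library had been dropped, levels were expressed as CPM, the reads of a locus scaled to the same total of remaining reads in each library. A locus was kept if it was longer than 200 nt, averaged at least 100 CPM over the 22 libraries, and had a log2 ratio of (DZ CPM + 10) to (MEZ CPM + 10) of at least 1 in the controls of both genotypes. Of 4190 loci over that length, 511 reached that mean, and 44 of these also met the ratio in both genotypes. The rule named 4 loci to be left out, 2 of which would have met it, so 42 remained. The loci were thus chosen by their measured control zone difference, mean CPM and length, and these are given below without a test.

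Roots of 11-day-old plants were sampled, of the proscoop12 mutant, which is in the Ws background and has longer roots than wild type per the labels, and of Ws wild type itself. Plants of each genotype were given the peptide SCOOP12 at 100 nM or water as the control. DZ with SCOOP12 had 3 proscoop12 and 3 Ws libraries, and DZ control had 3 proscoop12 and 2 Ws libraries. MEZ with SCOOP12 had 3 proscoop12 and 2 Ws libraries, and MEZ control had 3 of each.

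Long noncoding RNAs are transcribed and often spliced and polyadenylated like messenger RNAs, but carry no long conserved reading frame; some act on neighbouring genes, some pair with microRNAs or mask antisense partners, and for most no role is known. Along a root, cells divide and elongate near the tip and take on their final form in the differentiation zone, where root hairs and mature vessels appear. SCOOP12 is a short secreted peptide cut from the PROSCOOP12 precursor; it is sensed by the receptor kinase MIK2 with its co-receptor BAK1 and is known for immune responses and for restraining root growth.

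Before any result, 2 libraries need naming. The library labelled Ws DZ SCOOP12 replicate 3 comes from a sequencing file whose name gives proscoop12 DZ control. The reverse holds for replicate 3 of the proscoop12 DZ controls, whose file name gives Ws DZ with SCOOP12. The labels were kept, and test calls that changed without these libraries are given so. Zone ratios under SCOOP12 and counts by pairs or by non-overlapping libraries were not computed without them. Nor were the Ws counts from the fit that includes the replicate number. Replicates are numbered 1, 3 and 4, and file names place replicate 4 in another sequencing run than replicates 1 and 3; replicate 1 is missing in Ws for MEZ with SCOOP12 and for DZ control. Nothing in the labels says that replicates were separate cultures, so p-values measure the spread between these samples, which may be technical. Libraries held 474434 to 1575524 reads on all loci and 74717 to 162745 after the 6 loci were dropped. Mitochondrial and plastid loci took 36.1% to 43.9% of reads in DZ controls and 17.2% to 21.9% in MEZ. In DZ with SCOOP12 they took 38.2% in proscoop12 replicate 1, 46.9% in Ws replicate 1, and 19.7% to 25.2% in replicates 3 and 4. Marker genes of the root zones, PROSCOOP12 itself and other protein-coding genes were not analysed here, so neither the zone nor the genotype of a library was checked against its own genes.

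The sequences below show what some of the loci are made of, since none has a gene name that tells it. They are RefSeq sequences of the TAIR10.1 assembly (accession Col-0), read by locus name; Ws may differ from them. The files name no assembly, but the spliced RefSeq length equals the length in the files for all 42 loci. There are 2 pairs of related loci in the set, and the most alike 180 nt stretch of each is printed in the sense of the transcript, with capitals where the partners differ. AT5G48412 (chr5:19623587-19623766, minus strand) and AT2G31585 (chr2:13446475-13446654, plus strand) are alike at 96.51% of 659 aligned positions and differ at 2 positions of the stretch.
AT5G48412: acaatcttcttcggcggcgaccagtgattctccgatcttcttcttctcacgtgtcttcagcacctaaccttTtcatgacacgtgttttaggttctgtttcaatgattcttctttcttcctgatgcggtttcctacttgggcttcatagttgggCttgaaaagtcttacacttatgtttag
AT2G31585: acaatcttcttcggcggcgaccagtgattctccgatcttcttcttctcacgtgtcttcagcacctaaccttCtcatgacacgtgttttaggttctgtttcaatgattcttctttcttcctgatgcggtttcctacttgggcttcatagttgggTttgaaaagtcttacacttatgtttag
AT1G09235 (chr1:13281755-13281934, minus strand) and AT3G54366 (chr3:20132993-20133172, plus strand) are alike at 92.23% of 837 aligned positions and differ at 8 positions of the stretch.
AT1G09235: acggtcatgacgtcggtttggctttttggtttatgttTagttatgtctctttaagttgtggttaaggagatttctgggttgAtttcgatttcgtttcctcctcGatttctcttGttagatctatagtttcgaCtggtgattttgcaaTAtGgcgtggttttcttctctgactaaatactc
AT3G54366: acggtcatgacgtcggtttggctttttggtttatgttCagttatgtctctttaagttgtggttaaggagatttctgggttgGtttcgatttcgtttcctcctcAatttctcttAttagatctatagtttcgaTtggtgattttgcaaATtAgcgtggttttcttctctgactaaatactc
Reads that match both partners were divided between them by the authors' quantification, so the split within each pair is uncertain.

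The starts of 4 loci that the results below turn on are shown next, as 250 bases before to 50 bases after the annotated start, on the strand of the locus. Capitals mark matches, on either strand, to TATAAA (the TATA box) and to TTGACC or TTGACT (W-box forms, the sites of WRKY factors). The window of AT3G00880 is chr3:19152302-19152601 and that of AT1G31935 is chr1:11469232-11469531, each on the plus strand. That of AT4G02845 is chr4:2507862-2508161, minus strand, and that of AT3G00390 is chr3:7521693-7521992, plus strand.
AT3G00880: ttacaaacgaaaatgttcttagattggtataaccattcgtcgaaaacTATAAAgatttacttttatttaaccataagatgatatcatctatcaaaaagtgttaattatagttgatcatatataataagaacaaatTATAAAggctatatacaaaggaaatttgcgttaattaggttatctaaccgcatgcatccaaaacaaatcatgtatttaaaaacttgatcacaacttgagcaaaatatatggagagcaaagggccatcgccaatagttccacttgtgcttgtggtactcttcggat
AT1G31935: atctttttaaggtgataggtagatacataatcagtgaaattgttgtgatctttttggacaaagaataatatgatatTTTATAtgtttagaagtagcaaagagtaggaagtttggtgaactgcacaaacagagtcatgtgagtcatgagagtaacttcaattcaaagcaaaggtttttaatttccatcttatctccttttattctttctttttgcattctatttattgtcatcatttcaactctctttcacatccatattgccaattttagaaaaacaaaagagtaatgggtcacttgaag
AT4G02845: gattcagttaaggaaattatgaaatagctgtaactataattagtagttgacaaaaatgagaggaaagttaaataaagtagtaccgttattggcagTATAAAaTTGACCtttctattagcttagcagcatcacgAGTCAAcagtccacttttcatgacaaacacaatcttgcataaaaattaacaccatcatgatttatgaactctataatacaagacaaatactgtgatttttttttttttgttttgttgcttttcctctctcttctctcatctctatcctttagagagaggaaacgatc
AT3G00390: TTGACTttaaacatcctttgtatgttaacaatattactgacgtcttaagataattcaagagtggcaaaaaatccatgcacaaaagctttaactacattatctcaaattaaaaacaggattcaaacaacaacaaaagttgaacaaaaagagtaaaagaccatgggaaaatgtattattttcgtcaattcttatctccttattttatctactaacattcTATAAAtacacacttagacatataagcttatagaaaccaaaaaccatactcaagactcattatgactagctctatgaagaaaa
The TATAAA match closest to the start began at position -33 in AT3G00390, -115 in AT3G00880, -155 in AT4G02845 and -174 in AT1G31935, counted from the start along the strand. AT4G02845 held TTGACC at -148 and TTGACT at -117, and AT3G00390 held TTGACT at -250, the upstream edge of the window. Over the same 300-base window, TTGACT was found in 33.3% of the 42 loci and in 18.5% of all 5174 loci that could be placed, TTGACC in 16.7% and 12%, and TATAAA in 57.1% and 42.5%. CACGTG, the G-box, was found in 5 loci (11.9%, against 3.81% of all), which were AT1G69252, AT2G41312, AT5G09525, AT1G56165 and AT2G09935. TGTCTC, the auxin response element, was found in 21.4% and 14.7%, and TGGGCC, the site II element, in 9.52% and 7.87%. AT1G08687 and AT1G08697 overlap, so their windows share bases. These matches describe letters only.

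The loci lay on all 5 chromosomes, 13 on chromosome 1, 12 on chromosome 2, 9 on chromosome 3 and 4 each on chromosomes 4 and 5. RefSeq classes 11 of them as lncRNA, 16 as ncRNA and 15 as misc_RNA. They were 239 to 2265 nt long with a median of 690 nt, and 28 had 1 exon. Per kilobase of effective length, AT5G48412 had the highest mean level over the 22 libraries (49785 CPM per kb), followed by AT2G14878 (36811), AT1G31935 (30961) and AT2G31585 (29526), and AT3G21781 had the lowest (117).

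Most of the 42 loci stood apart from coding exons. No coding exon was overlapped by 33 of them (78.6%), against 41.7% of the 509 long abundant loci with an annotation, a set that includes the 42. The annotation places several of these near known genes, given here as positions only. AT3G52748 lies 14 nt from FTSZ2-2, a chloroplast division gene, AT3G48115 lies 23 nt from EDD1, and AT1G31935 lies between XLG3, an extra-large G protein, and AT1G31940, 45 nt away. AT2G41312 lies 642 nt from RR3, a type-A response regulator of cytokinin signalling, and AT1G67105 lies between LBD40 and CYP735A2, a cytokinin hydroxylase. AT5G48412 lies 90 nt from the glutamate receptor gene GLR1.3, AT3G00880 358 nt from the kinase gene WNK5, AT4G09215 522 nt from the NAC factor gene NTL9, and AT1G69252 1245 nt from AFP1. AT2G04005 lies between MLP328 and MLP329, AT3G06505 lies 1756 nt from LCR33 and AT1G66173 1091 nt from MMD1.

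Coding exons on the opposite strand were overlapped by 8 loci (19.0%, against 55.8% of the 509), 6 of them over at least 50% of their length. AT3G21781 lay wholly opposite UGT71B6, a glucosyltransferase of abscisic acid, and AT2G09935 wholly opposite AT2G47560. AT2G13665 lay opposite AT2G13660 over 90.97% of its length and AT2G35945 opposite the homeodomain gene BLH1 over 74.6%. AT2G24545 lay opposite AFR, an F-box gene of far-red light signalling, and AT2G24535 over 72.8%, and AT1G56165 lay opposite MYB72, a root transcription factor gene of iron deficiency, over 64.8%. The overlap was 2.42% in AT2G26355 and 3.96% in AT5G09525, and AT3G08445 shared 4.37% of its length with coding exons on its own strand. Which strand was counted is not given in the sources used here, so in these loci reads of the partner gene cannot be told apart from reads of the locus.

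Copies at 90% identity or more over at least 100 nt were found elsewhere in the genome for 12 loci and not for the other 30. AT2G00500 and AT2G05165 lie in the stretch of chromosome 2 that carries mitochondrial DNA, and their exons are identical to the mitochondrial genome over 564 and 690 nt and over 406 nt, so mitochondrial reads can count there. AT2G21188 resembles the coding gene AT2G21185 at 94.62%, AT5G38005 resembles AT3G56210 over 163 nt at 95.71%, AT3G00880 resembles AT3G51642 over 326 nt at 96.01%, and AT1G06983 resembles AT1G36640 over 375 nt at 90.13%. AT1G08687 and AT1G08697 overlap each other on the same strand and share reads. The other loci without such a copy include AT1G09605, AT5G24735, AT1G11175, AT1G09505, AT4G06790, AT4G03005, AT3G13277 and AT1G08763.

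In controls, the log2 zone ratios that chose the loci had a median of 1.45 in proscoop12 and 1.49 in Ws. They reached 4.67 in proscoop12 for AT1G08763 and 4.55 in Ws for AT3G00390. Both rest on MEZ controls that held only 3 reads in the whole group. The DZ controls had 142 to 1028 CPM for AT1G08763 in proscoop12 and 50.8 and 922 CPM for AT3G00390 in Ws. Next to the limit lay AT3G13277 and AT3G08445, at 1.01 and 1.04 in proscoop12. Just outside were AT1G70581 and AT3G52072, whose lower ratio was 0.95 in both cases. By mean level, AT3G08445 and AT1G08697 were just inside at 105 and 111 CPM, and AT3G08115 and AT5G09565 just outside at 86.6 and 72.9 CPM. By length, AT2G09935 and AT1G08697 were just inside at 239 and 271 nt, and AT1G09473 and AT1G67195 just outside at 110 and 108 nt. Within pairs of control libraries of the same number, 39 of the 42 loci were higher in DZ in all 5 pairs, the exceptions being AT3G00390, AT1G56165 and AT1G08697.

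In controls the loci together took a larger share of reads in DZ than in MEZ, which the choice itself required. With SCOOP12 the share was larger in DZ within each genotype and replicate number, and the span between the zones was smaller. Across replicate numbers the zones overlapped with SCOOP12 in proscoop12, where DZ replicate 1 lay below MEZ replicates 3 and 4. In Ws they did not overlap. In DZ with SCOOP12 they took 15.2%, 21.3% and 21.0% of the reads left in proscoop12 replicates 1, 3 and 4, and 15.9%, 20.5% and 21.2% in Ws. In DZ controls they took 23.9%, 25.6% and 26.8% in proscoop12 and 27.04% and 29.4% in Ws replicates 3 and 4. The DZ libraries with SCOOP12 lay below every DZ control. In MEZ with SCOOP12 the shares were 10.11%, 15.6% and 15.9% in proscoop12 and 13.8% and 15.2% in Ws. In MEZ controls they were 8.29%, 9.94% and 9.86% in proscoop12 and 8.77%, 12.5% and 11.3% in Ws. All MEZ libraries with SCOOP12 except proscoop12 replicate 1 lay above every MEZ control, and replicate 1 was the lowest of its group in all 6 groups that have it. A larger share can mean more cells of a type or more of these RNAs per cell, which cannot be told apart in whole zones. A choice by high DZ controls and low MEZ controls also favours lower values in other DZ libraries and higher ones in other MEZ libraries.

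**Figure D1:**
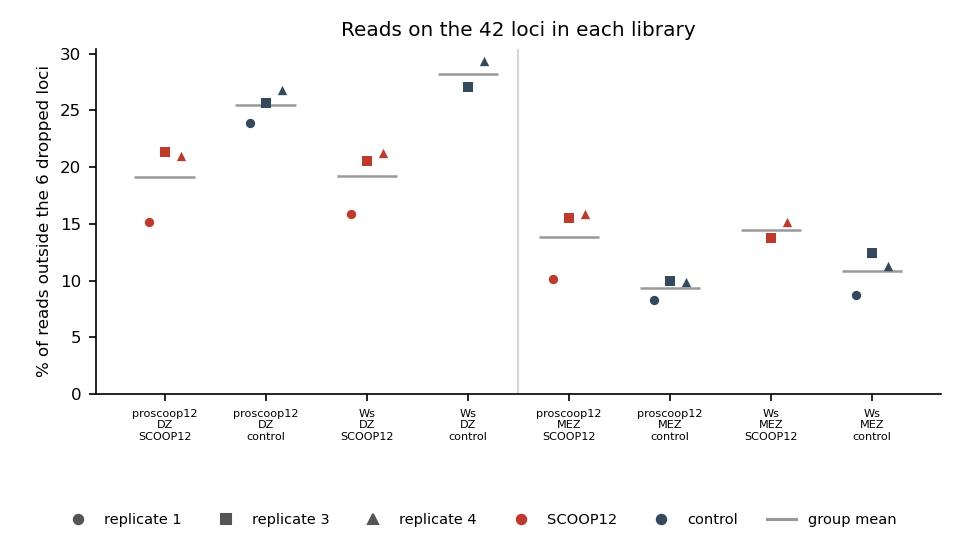
Share of the reads outside the 6 dropped loci (vertical axis, %) that fell on the 42 loci, in each of the 22 libraries (points, with the shape giving the replicate number) by group, with group means as bars. DZ libraries with SCOOP12 lie between 15.2% and 21.3%, below all DZ controls (23.9% to 29.4%), and MEZ libraries with SCOOP12 reach 15.9%.

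The zone difference under SCOOP12 was measured in libraries the rule did not use for the zone ratio. These libraries did count towards the mean of at least 100 CPM, so a locus high in them passed more easily. AT2G09935, AT1G08697 and AT3G08445, at means of 129, 111 and 105 CPM, lay near that limit. Their group means were 154 to 250 CPM in DZ with SCOOP12 and 32.4 to 91.5 CPM in MEZ with SCOOP12. By the same log2 ratio, the median zone difference over the 42 loci was 0.85 in proscoop12 and 0.69 in Ws with SCOOP12. In the controls that chose them it was 1.45 and 1.49. DZ stayed above MEZ for 39 loci in proscoop12 and for 39 in Ws, 38 of them in both. The Ws count holds AT3G00880, whose DZ mean includes replicate 1, which has no MEZ partner in Ws; in both Ws pairs it was lower in DZ. The ratio was at least 1 for 12 loci in each genotype (28.6%, against 2.99% of the 469 other long abundant loci in proscoop12 and 3.62% in Ws). The 9 loci that reached 1 in both genotypes were AT1G08687, AT3G00390, AT2G41312, AT4G09215, AT1G67105, AT2G05165, AT1G08763, AT1G56165 and AT2G09935. The ratio was smaller with SCOOP12 than in controls for 39 loci in proscoop12 and 37 in Ws, which was not counted over the other loci. It was larger in both genotypes for AT2G05165 (2.495 against 1.19 in proscoop12, 1.84 against 1.26 in Ws) and AT2G09935 (2.34 against 1.77 in proscoop12, 2.19 against 1.92 in Ws). The 84 long abundant loci chosen the other way, with a ratio of -1 or less in both controls, also moved towards 0, to medians of -0.84 in proscoop12 and -0.59 in Ws with SCOOP12, against -1.62 and -1.91 in controls.

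**Figure D2:**
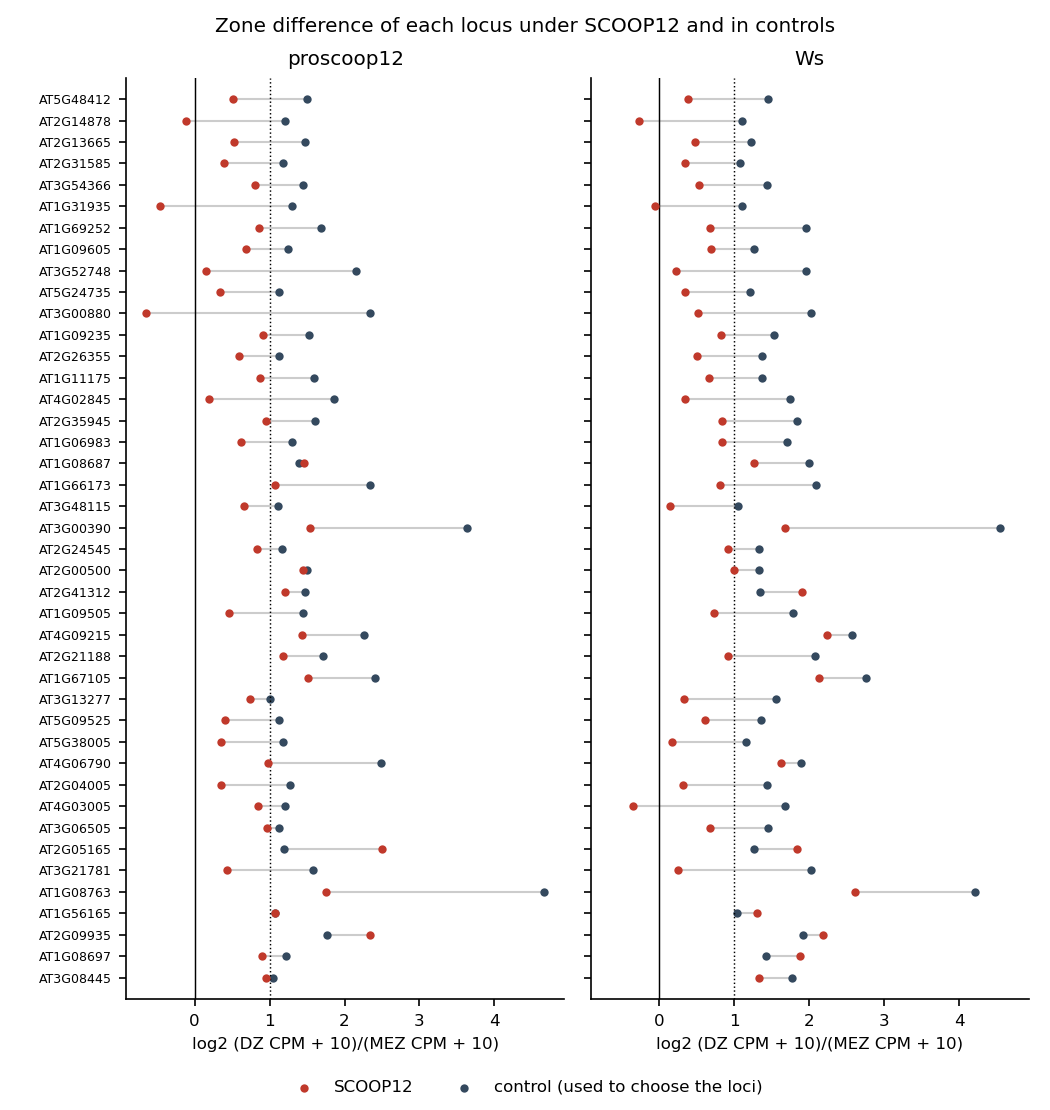
Zone difference of each of the 42 loci, as log2 of (DZ CPM + 10) over (MEZ CPM + 10) from group means (horizontal axis), under SCOOP12 (red) and in the controls that chose the loci (dark), for proscoop12 (left) and Ws (right). The dotted line marks 1, the limit of the rule; under SCOOP12 12 loci in each genotype lie at or past it and 39 in each lie above 0.

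Within pairs of SCOOP12 libraries that share a genotype and a replicate number, 31 of the 42 loci (73.8%) were higher in DZ in all 5 pairs, against 12.6% of the 469 other long abundant loci. AT1G31935 and AT3G00880 (4.76%, against 27.1% of the 469) were lower in DZ in all 5 pairs. Their log2 ratios were -0.58 to -0.13 and -0.79 to -0.05. The other loci that were not higher in every pair were AT2G14878, AT1G09605, AT3G52748, AT1G06983, AT1G09505, AT5G09525, AT5G38005, AT4G03005 and AT3G21781.

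The test across all 844 loci with enough reads (edgeR's quasi-likelihood F test, Benjamini-Hochberg adjusted p under 0.05) called few of the 42 loci between the zones under SCOOP12. In proscoop12, 2 were called higher in DZ, AT2G09935 and AT1G08687, where 0.237% of all loci tested were called higher. In Ws, 1 was called higher, AT2G41312, where 0.118% were. By edgeR and by DESeq2 0 of the 42 were called lower in DZ, where edgeR called 0.711% of all loci lower in proscoop12 and 0.829% in Ws, and 0 had an unadjusted p under 0.05 with DZ lower; 17 loci in proscoop12 and 13 in Ws had an unadjusted p under 0.05 with DZ higher, where 15.5% and 9.95% of all loci had one in either direction. The fitted log2 fold changes had a median of 0.93 over the 42 loci in proscoop12 and 0.78 in Ws, against 0.00 over all 844 loci in both.

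AT2G09935, the shortest locus, had 285, 169.2 and 160.2 CPM in proscoop12 DZ with SCOOP12 (replicates 1, 3 and 4), against 43.6, 18.7 and 34.8 CPM in proscoop12 MEZ with SCOOP12. In Ws it had 451, 183.8 and 117 CPM in DZ with SCOOP12, against 58.6 and 35.7 CPM in MEZ (replicates 3 and 4). Every DZ library was above every MEZ library of its genotype. These DZ values also count in the mean of 129 CPM that kept the locus. With SCOOP12 it was higher in DZ than in MEZ by 2.68 on the log2 scale in proscoop12 (SE 0.57, edgeR adjusted p 0.0134). In Ws the zone difference was 2.30 (SE 0.63, edgeR adjusted p 0.0945). Its controls had 208, 169.1 and 156 CPM in proscoop12 DZ and 339 and 119 CPM in Ws DZ, against 68.4, 58.9 and 8.00 and 35.5, 70.8 and 53.5 CPM in MEZ. The call was lost without proscoop12 MEZ SCOOP12 replicate 1 (adjusted p 0.0621) or 3 (0.0976) or without proscoop12 DZ SCOOP12 replicate 3 (0.0578, all edgeR). It was also lost in replicates 1 and 3 alone.

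AT1G08687, a spliced RNA of 570 nt, had 3127, 3777 and 3916 CPM in proscoop12 DZ with SCOOP12, against 916, 1497 and 1507 CPM in proscoop12 MEZ with SCOOP12. In Ws it had 3052, 3464 and 3345 CPM in DZ with SCOOP12, against 1423 and 1294 CPM in MEZ with SCOOP12. The zones did not overlap in either genotype. With SCOOP12 its DZ level was above its MEZ level by 1.53 on the log2 scale in proscoop12 (SE 0.33, edgeR adjusted p 0.0134). The zone difference in Ws was 1.32 (SE 0.37, edgeR adjusted p 0.110). In controls it had 1435, 1691 and 2011 CPM in proscoop12 DZ and 3198 and 1596 CPM in Ws DZ. The MEZ controls had 635, 718 and 589 CPM in proscoop12 and 379, 806 and 589 CPM in Ws. In proscoop12 its libraries with SCOOP12 were above the controls in both zones, and in Ws only the MEZ libraries were all above. The zone call was lost without proscoop12 MEZ SCOOP12 replicate 1 (adjusted p 0.118) or without proscoop12 DZ SCOOP12 replicate 3 (0.0578) or 4 (0.0849, all edgeR). It was also lost with the labels of the doubtful pair exchanged (edgeR adjusted p 0.0666), from the compared groups alone (0.0632) and in replicates 1 and 3 (0.2199).

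AT2G41312, next to the cytokinin response gene RR3, had 1256, 493 and 455 CPM in Ws DZ with SCOOP12, against 117 and 262 CPM in Ws MEZ with SCOOP12. In proscoop12 it had 654, 515 and 415 CPM in DZ with SCOOP12, against 284, 131 and 253 CPM in MEZ with SCOOP12. Replicate 1 was the highest DZ library in both genotypes, and no DZ library reached down to a MEZ library of its genotype. With SCOOP12 the locus was higher in DZ than in MEZ by 1.94 on the log2 scale in Ws (SE 0.44, edgeR adjusted p 0.0347). In proscoop12 the zone difference was 1.32 (SE 0.37, edgeR adjusted p 0.0762). The call in Ws was lost without Ws DZ SCOOP12 replicate 1 (log2 fold change 1.47, adjusted p 0.122) and without Ws MEZ SCOOP12 replicate 3 (1.46, adjusted p 0.499) or 4 (2.60, adjusted p 0.0737, all edgeR). On the scale of the rule, from the compared groups alone and without DZ SCOOP12 replicate 1 of both genotypes the locus did not pass in Ws either. The same held in replicates 1 and 3, where Ws MEZ with SCOOP12 has only replicate 3. Controls of this locus had 1819, 819 and 1039 CPM in proscoop12 DZ and 1025 and 862 CPM in Ws DZ. The MEZ controls had 489.8, 318 and 496 CPM in proscoop12 and 379, 384 and 335 CPM in Ws. In MEZ of both genotypes and in DZ of proscoop12 every SCOOP12 library was below every control. Of the 42 loci, only AT2G41312 was lower with SCOOP12 in all 5 MEZ pairs. Among the 469 other long abundant loci 17.5% were.

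Libraries of the same replicate number deviated together in the zone and SCOOP12 comparisons and between the genotypes, so the replicate number was also fitted as a block. In Ws, with 2 such pairs, edgeR with the block called 14 of the 42 loci higher and 0 lower in DZ than in MEZ under SCOOP12, where it called 2.96% of all 844 loci higher and 3.91% lower. With SCOOP12 against water it called 1 higher (AT3G00390) and 3 lower (AT3G00880, AT1G31935 and AT2G14878) in Ws DZ, where it called 0.474% of all loci higher and 0.829% lower. In Ws MEZ it called 5 higher and 0 lower, where it called 1.07% higher and 0.118% lower. These Ws counts were not rerun with libraries left out or labels exchanged. The doubtful Ws DZ SCOOP12 replicate 3 enters the zone and DZ counts. The 14 include AT1G08687 (1.52, SE 0.25, edgeR adjusted p 0.000737) and AT2G09935 (2.07, SE 0.57, edgeR adjusted p 0.0272), which did not pass in Ws without it. With the block, edgeR called 18 of the 42 loci higher in DZ than in MEZ under SCOOP12 in proscoop12, where it called 5.21% of all 844 loci higher, and called 0 of the 42 lower, where it called 4.38% lower. The steepest were AT2G05165 (log2 fold change 2.81, SE 0.46, edgeR adjusted p 0.00034), one of the loci with an identical mitochondrial copy, and AT2G09935 (2.69, SE 0.51, edgeR adjusted p 0.0012). AT3G00390, AT1G67105, AT4G09215, AT2G00500, AT1G08687, AT2G21188, AT2G41312, AT1G66173, AT4G06790, AT2G35945 and AT1G09235 were higher in DZ than in MEZ by 1.01 to 1.74 on the log2 scale. AT2G24545, AT3G54366, AT1G69252, AT5G48412 and AT2G13665 were higher in DZ by 0.60 to 0.94. The count was 16 without both doubtful libraries, 14 with their labels exchanged and 11 without proscoop12 DZ SCOOP12 replicate 3. Calls over all loci were not counted for these settings.

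The comparison of SCOOP12 with water in DZ asked which of these RNAs the peptide changed where they are most abundant. Its controls are among the libraries that chose the loci, so a fall was favoured by the choice. In DZ of proscoop12 2 loci were called lower, AT3G00880 and AT1G31935, where edgeR called 0.829% of all 844 loci lower, and the same 2 were called lower in DZ of Ws, where it called 0.237% lower. Of the 42, 0 were called higher by edgeR or by DESeq2, where edgeR called 0.474% of all loci higher in proscoop12 (1.30% in either direction) and 0.118% in Ws, and 2 in proscoop12 and 0 in Ws had an unadjusted p under 0.05 with higher values. With lower values 6 loci in each genotype had one, where 12.2% of all loci in proscoop12 and 8.18% in Ws had one in either direction. Over the 42 loci the median log2 fold change was -0.12 in proscoop12 and -0.21 in Ws, against 0.05 over all loci in each. On the scale of the rule, without TMM, the medians were -0.04 and -0.11, against 0.15 and 0.17 over all loci, and with the replicate block they were -0.22 and -0.21. Organellar reads took 19.7% to 46.9% in these SCOOP12 libraries and 36.1% to 43.9% in the controls. The part of that share in these results was not tested. In the replicate 1 libraries of proscoop12 it was 38.2% with SCOOP12 and 43.9% in the control, and there AT3G00880 had 3216 CPM with SCOOP12 and 16592 CPM in the control, and AT1G31935 had 5853 and 23296 CPM. Without DZ SCOOP12 replicate 1 of both genotypes both loci stayed called, AT3G00880 at -2.71 in proscoop12 and -2.28 in Ws and AT1G31935 at -1.78 in proscoop12 and -1.80 in Ws.

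AT3G00880, an unspliced RNA of 852 nt between WNK5 and AT3G51640, had 3216, 1823 and 2061 CPM in proscoop12 DZ with SCOOP12, against 16592, 10429.8 and 11094 CPM in its controls. The DZ values of Ws were 6848, 2382 and 2507 CPM with SCOOP12, against 10100.2 and 12939 CPM in controls (replicates 3 and 4). All SCOOP12 libraries were below all controls, and replicate 1 was the highest SCOOP12 library in each genotype. It fell in both genotypes, by -2.52 on the log2 scale in proscoop12 (SE 0.31, edgeR adjusted p 3.73e-05) and by -1.76 in Ws (SE 0.33, edgeR adjusted p 0.00752). Its MEZ values were 4494, 3083 and 3569.9 CPM with SCOOP12 and 2814, 2072 and 2632 CPM in controls of proscoop12. The MEZ values of Ws were 2472 and 2986 CPM with SCOOP12 and 3066, 2891 and 2476 CPM in controls. In proscoop12 MEZ the SCOOP12 libraries were all above the controls, whereas in Ws they overlapped. With SCOOP12 each DZ library was below the MEZ library of the same genotype and number. In Ws the call was lost without DZ SCOOP12 replicate 3 (log2 fold change -1.52, adjusted p 0.0787) or 4 (-1.66, adjusted p 0.0606), and without DZ control replicate 4 (-1.48, adjusted p 0.3695, all edgeR). It was also lost without both doubtful libraries (-1.56, edgeR adjusted p 0.0798), with their labels exchanged (-0.88, edgeR adjusted p 1.0) and on the scale of the rule (-1.56, edgeR adjusted p 0.1165). From the compared groups alone the Ws call was lost too, as it was in replicates 1 and 3, where Ws DZ control has only replicate 3. In proscoop12 the call was lost only when the labels of the doubtful pair were exchanged (-2.12, edgeR adjusted p 0.304), among 16 alternatives. That exchange also ended the proscoop12 call with the replicate block.

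AT1G31935, an unspliced RNA of 529 nt, had 5853, 4953 and 6109 CPM in proscoop12 DZ with SCOOP12, against 23296, 16428 and 17138 CPM in its controls. Ws had, in DZ, 9016, 6337 and 4756 CPM with SCOOP12, against 24344 and 13826 CPM in controls. The groups did not overlap in either genotype. The fall was -1.83 on the log2 scale in proscoop12 (SE 0.26, edgeR adjusted p 0.000226) and -1.65 in Ws (SE 0.28, edgeR adjusted p 0.00379). In MEZ it had 7101, 7055 and 9151 CPM with SCOOP12 and 8396, 6780.4 and 7816 CPM in controls of proscoop12. Ws had, in MEZ, 6917 and 7019.9 CPM with SCOOP12 and 7647, 10917 and 8044 CPM in controls. The MEZ groups overlapped in proscoop12, and in Ws the SCOOP12 libraries were all below the controls on this scale. The fitted MEZ values were 0.12 in proscoop12 (SE 0.25, edgeR adjusted p 0.973) and -0.18 in Ws (SE 0.29, edgeR adjusted p 0.893). In Ws DZ the call was lost without DZ control replicate 3 (-1.29, edgeR adjusted p 0.148). The Ws call was also lost from the compared groups alone and in replicates 1 and 3, where Ws DZ control has only replicate 3. With the labels of the doubtful pair exchanged the call was lost in both genotypes. The values were then -1.49 in proscoop12 (edgeR adjusted p 0.550) and -0.95 in Ws (edgeR adjusted p 0.9715).

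**Figure D3:**
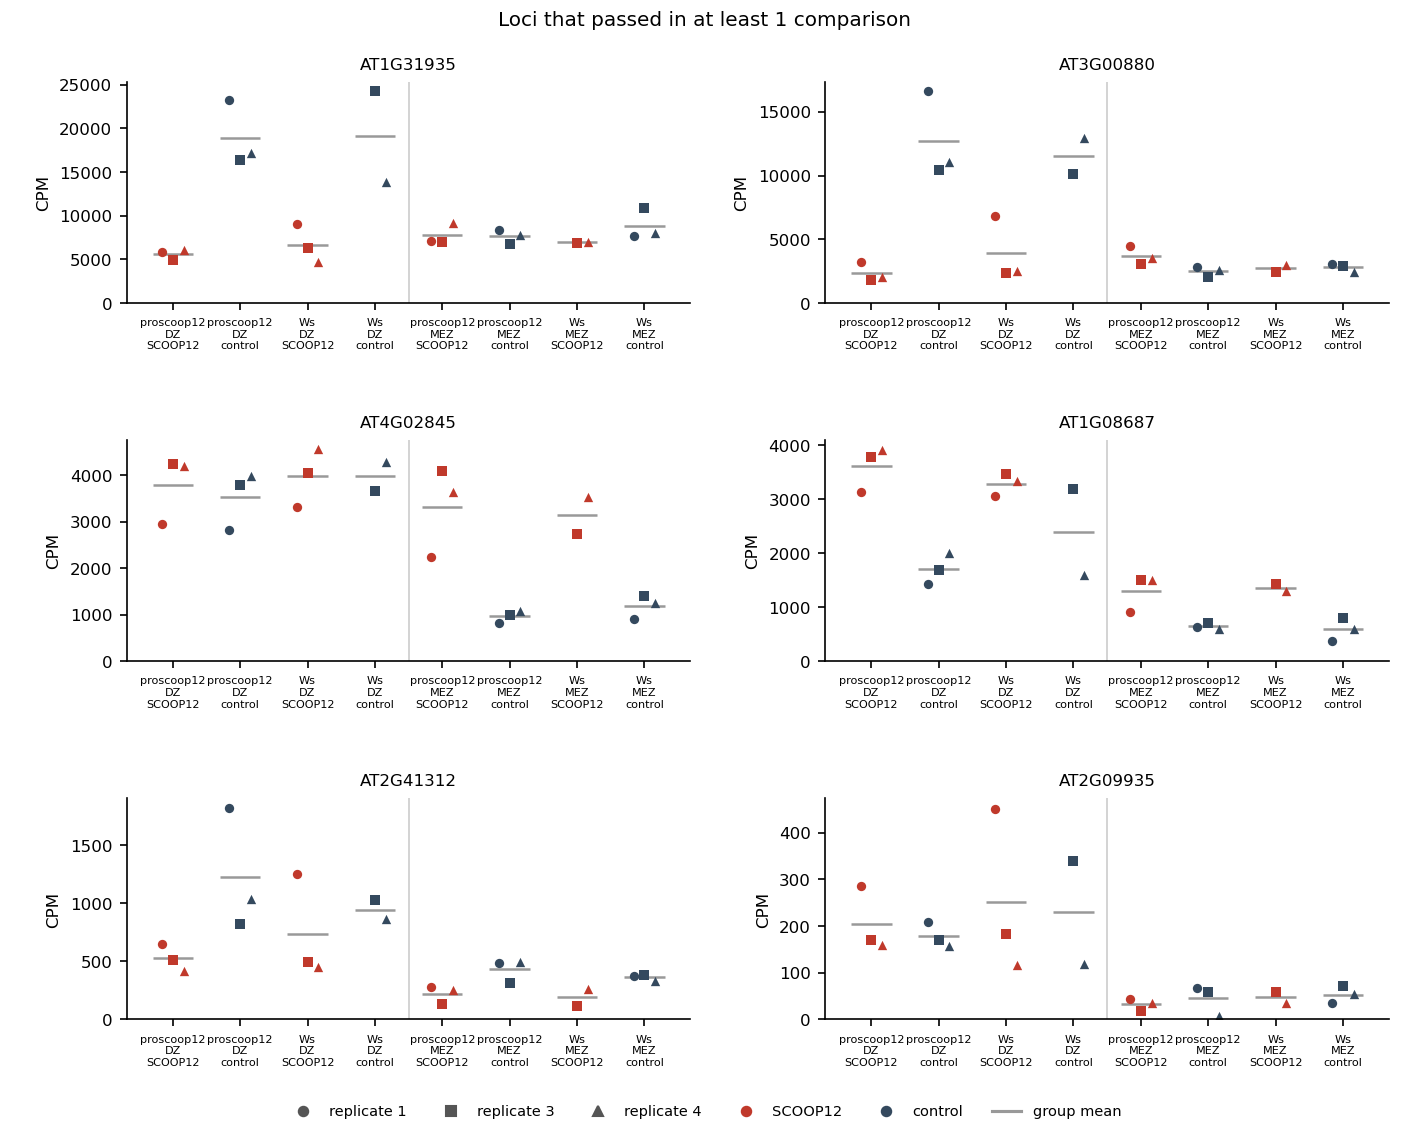
Level in CPM (vertical axes, linear from 0) of the 6 loci that passed in at least 1 comparison, in each of the 22 libraries (points, shape by replicate number, red with SCOOP12) by group, with group means as bars. AT1G31935 and AT3G00880 stand lower with SCOOP12 than in controls in DZ of both genotypes, and AT4G02845 stands higher with SCOOP12 in MEZ of both.

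With the replicate block, 8 loci were called lower with SCOOP12 in proscoop12 DZ (2.61% of all 844 loci were) and 3 higher (3.32% were). Besides AT3G00880 (-2.54, SE 0.22, edgeR adjusted p 6.67e-08) and AT1G31935 (-1.83, SE 0.23, edgeR adjusted p 1.94e-05), the loci that fell were AT1G08763, AT2G41312, AT2G14878, AT2G13665, AT5G24735 and AT2G31585, by -1.98 to -0.65. AT1G08763 passed narrowly (edgeR adjusted p 0.0499), and its SCOOP12 libraries overlapped with its controls. AT3G00390 (2.74, SE 0.60), AT1G67105 (1.80, SE 0.44) and AT1G08687 (0.98, SE 0.21) rose, with edgeR adjusted p-values of 0.00723, 0.0147 and 0.00616. The total of 11 fell to 4 without both doubtful libraries, to 5 without proscoop12 DZ control replicate 3 and to 6 without proscoop12 DZ SCOOP12 replicate 4, and it was 0 with the labels of the doubtful pair exchanged. Without DZ SCOOP12 replicate 1 of both genotypes it was 10. For these settings the share of all loci called was not counted.

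By libraries alone, 8 loci had all SCOOP12 libraries below all controls in proscoop12 DZ, against 4.18% of 838 loci, and 8 in Ws DZ, against 5.13%. AT5G48412, AT2G14878, AT2G13665, AT2G31585, AT1G31935, AT3G00880 and AT5G38005 did so in both genotypes, AT2G41312 in proscoop12 and AT5G24735 in Ws. All SCOOP12 libraries were above all controls for AT1G08687 and AT2G05165 in proscoop12 DZ (12.8% of loci) and for 0 in Ws DZ (13.1%). In all 5 pairs of the same genotype and number, 11 loci were lower with SCOOP12 (26.2%, against 8.10% of the 469 other long abundant loci) and 8 were higher (19.0%, against 19.4%). The loci that were lower in all pairs were the 9 just named as lower together with AT3G54366 and AT3G06505.

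AT5G48412 and AT2G14878, the most abundant loci by CPM, are described for that reason. AT5G48412 had 19879, 33385 and 31187 CPM in proscoop12 DZ with SCOOP12, against 35825, 41499 and 36024 CPM in controls. In Ws DZ it had 18466, 32036 and 32618 CPM with SCOOP12, against 41184 and 44556 CPM in controls. The SCOOP12 libraries were lower without overlap, and replicate 1 was the lowest. Its MEZ values were 13594, 23074 and 22264 CPM with SCOOP12, against 11914, 14841 and 13479 CPM in controls of proscoop12. In Ws MEZ it had 21276 and 21044 CPM with SCOOP12, against 13372, 17902 and 15912 CPM in controls. The MEZ groups overlapped in proscoop12 and not in Ws. The fitted changes did not pass in DZ (-0.51, SE 0.32, in proscoop12 and -0.72, SE 0.36, in Ws) or in MEZ (0.67, SE 0.32, in proscoop12 and 0.60, SE 0.36, in Ws), with edgeR adjusted p-values of 0.545 to 0.636. Its related partner AT2G31585 had values of the same sign, -0.60 in DZ and 0.38 in MEZ of proscoop12, and -0.78 in DZ and 0.21 in MEZ of Ws, none of which passed; the pair shares reads.

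AT2G14878, an unspliced RNA of 876 nt, had 15776, 23226 and 24938 CPM in proscoop12 DZ with SCOOP12, against 30998, 34297 and 39683 CPM in controls. The DZ values of Ws were 15972, 25642 and 21906 CPM with SCOOP12, against 38850.1 and 44475 CPM in controls. No SCOOP12 library reached the controls of its genotype. In MEZ it had 13897, 27144 and 27967 CPM with SCOOP12, against 11335, 17069 and 17017 CPM in controls of proscoop12. The MEZ values of Ws were 24581 and 26604 CPM with SCOOP12, against 12998, 24148 and 21227 CPM in controls. With SCOOP12 its DZ and MEZ levels overlapped in both genotypes. Without the block its DZ changes did not pass (-0.81, SE 0.36, in proscoop12 and -1.08, SE 0.39, in Ws, edgeR adjusted p 0.350 and 0.373). With the block it fell in DZ of proscoop12 (-0.84, SE 0.17, edgeR adjusted p 0.00453) and of Ws (-0.85, SE 0.19, edgeR adjusted p 0.0225) and rose in proscoop12 MEZ (0.66, SE 0.17, edgeR adjusted p 0.0385).

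AT2G13665, the third by CPM and opposite AT2G13660, had 17664, 21426 and 15029 CPM in proscoop12 DZ with SCOOP12, against 28813, 28308 and 26008 CPM in controls. Ws had, in DZ, 17078, 18504 and 16013 CPM with SCOOP12, against 25513 and 26671 CPM in controls. It was lower in every SCOOP12 library of DZ, and here replicate 1 did not stand apart. Its MEZ values were 10319, 15366 and 12033 CPM with SCOOP12, against 9911, 10524 and 9609 CPM in controls of proscoop12. Ws had, in MEZ, 12984 and 11708 CPM with SCOOP12, against 10654, 12453 and 10279 CPM in controls. The MEZ groups overlapped in both genotypes. The fitted DZ changes were -0.72 in proscoop12 (SE 0.23, edgeR adjusted p 0.134) and -0.73 in Ws (SE 0.25, edgeR adjusted p 0.322), and with the block the one in proscoop12 passed (-0.73, SE 0.17, edgeR adjusted p 0.00987).

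In MEZ, where the loci are low in controls, most had higher values with SCOOP12. The fitted log2 fold change was above 0 for 38 of the 42 loci in proscoop12 and for 38 in Ws, with medians of 0.68 and 0.70, against -0.04 and 0.00 over all 844 loci. On the scale of the rule, without TMM, the counts were 38 and 35 and the medians 0.59 and 0.54, against -0.11 and -0.16 over all loci. These controls also chose the loci, which favours a rise. AT4G02845 was called higher in proscoop12, where edgeR called 0.829% of all loci higher; in Ws 0 of the 42 were called, where edgeR called 0.237% higher, 12 loci had an unadjusted p under 0.05 with higher values (10.8% of all loci had one in either direction) and DESeq2 called 1.

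AT4G02845, an unspliced RNA of 1084 nt, had 2247, 4085 and 3639.5 CPM in proscoop12 MEZ with SCOOP12, against 820.2, 1001 and 1072 CPM in controls. In Ws MEZ it had 2736 and 3534 CPM with SCOOP12, against 899.7, 1405 and 1245 CPM in controls. Every SCOOP12 library was above every control in both genotypes. It rose in proscoop12 by 1.89 on the log2 scale (SE 0.34, edgeR adjusted p 0.00723); the value in Ws was 1.57 (SE 0.36, edgeR adjusted p 0.0890). In DZ it had 2942, 4245 and 4209 CPM with SCOOP12, against 2828, 3791 and 3988 CPM in controls of proscoop12. In Ws DZ it had 3317, 4043 and 4565 CPM with SCOOP12, against 3669 and 4293 CPM in controls. The DZ groups overlapped, with fitted changes of 0.00 in proscoop12 (SE 0.32) and -0.11 in Ws (SE 0.36). With SCOOP12 the MEZ level reached the range of DZ in both genotypes. Without the block the call was lost without proscoop12 MEZ control replicate 1 (1.77, edgeR adjusted p 0.0536) or 3 (1.85, edgeR adjusted p 0.0524). From the compared groups alone and in replicates 1 and 3 the locus did not pass either. With the block it rose in both genotypes, by 1.85 in proscoop12 (SE 0.18, edgeR adjusted p 4.18e-07) and by 1.35 in Ws (SE 0.20, edgeR adjusted p 0.000157).

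With the replicate block, 8 loci were called higher with SCOOP12 in proscoop12 MEZ, where edgeR called 2.13% of all loci higher, and 0 of the 42 lower, where it called 0.592% lower. Besides AT4G02845 they were AT3G00390 (5.14, SE 0.86, edgeR adjusted p 0.000722), AT1G67105 (3.45, SE 0.63, edgeR adjusted p 0.00159), AT3G52748 (2.06, SE 0.27, edgeR adjusted p 3.7e-05), AT2G21188, AT1G09235, AT1G08687 and AT2G14878, the last 4 by 0.66 to 1.37. The 5 called with the block in Ws MEZ were AT4G02845, AT3G00390, AT3G52748, AT1G09235 and AT1G08687. The number called in proscoop12 MEZ was 5 without proscoop12 MEZ control replicate 3 and 5 without proscoop12 MEZ SCOOP12 replicate 4. It was 13 without proscoop12 MEZ control replicate 1 and 8 without both doubtful libraries. The number in Ws MEZ was not rerun in this way, and the share of all loci called was not counted for these settings. By libraries alone, 9 loci had all SCOOP12 libraries above all controls in proscoop12 MEZ, against 4.42% of 838 loci, and 20 in Ws MEZ, against 12.1%. AT3G52748, AT1G09235, AT4G02845, AT1G06983, AT1G08687, AT1G66173, AT3G13277 and AT3G21781 did so in both genotypes. In all 5 pairs of the same genotype and number 17 loci were higher (40.5%, against 5.76% of the 469 other long abundant loci). Lower in all 5 pairs was 1 locus (2.38%, against 17.5%). All SCOOP12 libraries were below all controls for 1 locus in proscoop12 MEZ (5.73% of 838 loci) and for 2 in Ws MEZ (21.5%).

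Some loci differed widely between replicate numbers, and 4 of them, chosen after their values were seen, are shown. AT3G00390, a spliced RNA of 548 nt, had 127, 4929.7 and 2854 CPM in proscoop12 DZ with SCOOP12 and 75.1, 2742 and 5051 CPM in Ws DZ with SCOOP12, replicate 1 first. The DZ controls had 0, 400.5 and 927 CPM in proscoop12 and 50.8 and 922 CPM in Ws (replicates 3 and 4). Replicate 1 was far below replicates 3 and 4 with the peptide, and its control had no read, which allows up to 29.7 CPM (3 reads; counting error only). In MEZ with SCOOP12 it had 0, 1921 and 792 CPM in proscoop12 and 684 and 940.0 CPM in Ws (replicates 3 and 4). The MEZ controls had 0, 23.5 and 56.0 CPM in proscoop12 and 0, 20.2 and 13.4 CPM in Ws. In replicates 3 and 4, each SCOOP12 library was above the controls of its zone and genotype, and the replicate 1 values of 0 in MEZ allow up to 32.7 CPM with SCOOP12, against 34.2 CPM in the proscoop12 control and 35.5 CPM in the Ws control. Without the block the changes did not pass in DZ (2.47, SE 1.40, in proscoop12 and 2.36, SE 1.62, in Ws) or in MEZ (5.01, SE 1.83, in proscoop12 and 6.15, SE 2.22, in Ws), with edgeR adjusted p-values of 0.337 to 0.820.

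AT1G67105, between LBD40 and CYP735A2, had 148, 1177 and 1172 CPM in proscoop12 DZ with SCOOP12, against 109, 303 and 179 CPM in controls. The DZ values of Ws were 75.1, 779 and 854 CPM with SCOOP12, against 991 and 282 CPM in controls. In replicates 3 and 4 the peptide libraries of proscoop12 were above the controls, whereas the Ws libraries overlapped. In MEZ it had 21.8, 506 and 331 CPM with SCOOP12, against 0, 70.6 and 16.0 CPM in controls of proscoop12, where the value of 0 allows up to 34.2 CPM. The MEZ values of Ws were 78.2 and 167 CPM with SCOOP12, against 23.7, 152 and 80.3 CPM in controls. Here too the Ws groups overlapped. The difference between the genotypes in the response was 2.14 in DZ (SE 1.31) and 2.87 in MEZ (SE 1.79) on the log2 scale. It did not pass (edgeR adjusted p 1.0 in each). With the replicate block the difference was 1.43 in DZ (SE 0.61) and 3.34 in MEZ (SE 0.94, edgeR adjusted p 0.739) and did not pass either.

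AT3G52748, 14 nt from FTSZ2-2, had 8476, 5247 and 7592 CPM in proscoop12 MEZ with SCOOP12, against 1845, 942 and 3032 CPM in controls. Ws had, in MEZ, 5051 and 9233 CPM with SCOOP12, against 2202, 970.4 and 2851 CPM in controls. The groups did not overlap, and replicate 3 was the lowest in each group. In DZ it had 12307, 4345 and 6968 CPM with SCOOP12, against 8296, 4316 and 13317 CPM in controls of proscoop12. Ws had, in DZ, 13654, 3940.4 and 7472 CPM with SCOOP12, against 4465 and 11189 CPM in controls. The DZ groups overlapped in both genotypes. Without the block its MEZ changes were 1.89 in proscoop12 (SE 0.55, edgeR adjusted p 0.174) and 2.01 in Ws (SE 0.60, edgeR adjusted p 0.172) and did not pass.

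AT1G69252 had 3649, 14551 and 17563 CPM in proscoop12 DZ with SCOOP12, against 7525, 11604 and 15194 CPM in controls. In Ws DZ it had 3467, 14708 and 18686 CPM with SCOOP12, against 14727 and 23223 CPM in controls. Its MEZ values were 2585, 7758 and 9299 CPM with SCOOP12, against 2005, 4096 and 4512 CPM in controls of proscoop12. Replicate 1 was the lowest in every group that has it and replicate 4 the highest in every group. In Ws MEZ it had 6898 and 8412 CPM with SCOOP12, against 2178, 5125 and 7361 CPM in controls. Across the 42 loci, replicate 1 was the lowest of the 3 libraries in all 6 groups of 3 for 12 loci, replicate 3 for 1 and replicate 4 for 0. In DZ with SCOOP12 of both genotypes, replicate 1 was the lowest for 25 loci and the highest for 11. These replicate 1 libraries are also those in which organellar reads took 38.2% and 46.9%, against 19.7% to 25.2% in replicates 3 and 4. The part of that difference in the levels of the 42 loci was not tested.

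**Figure D4:**
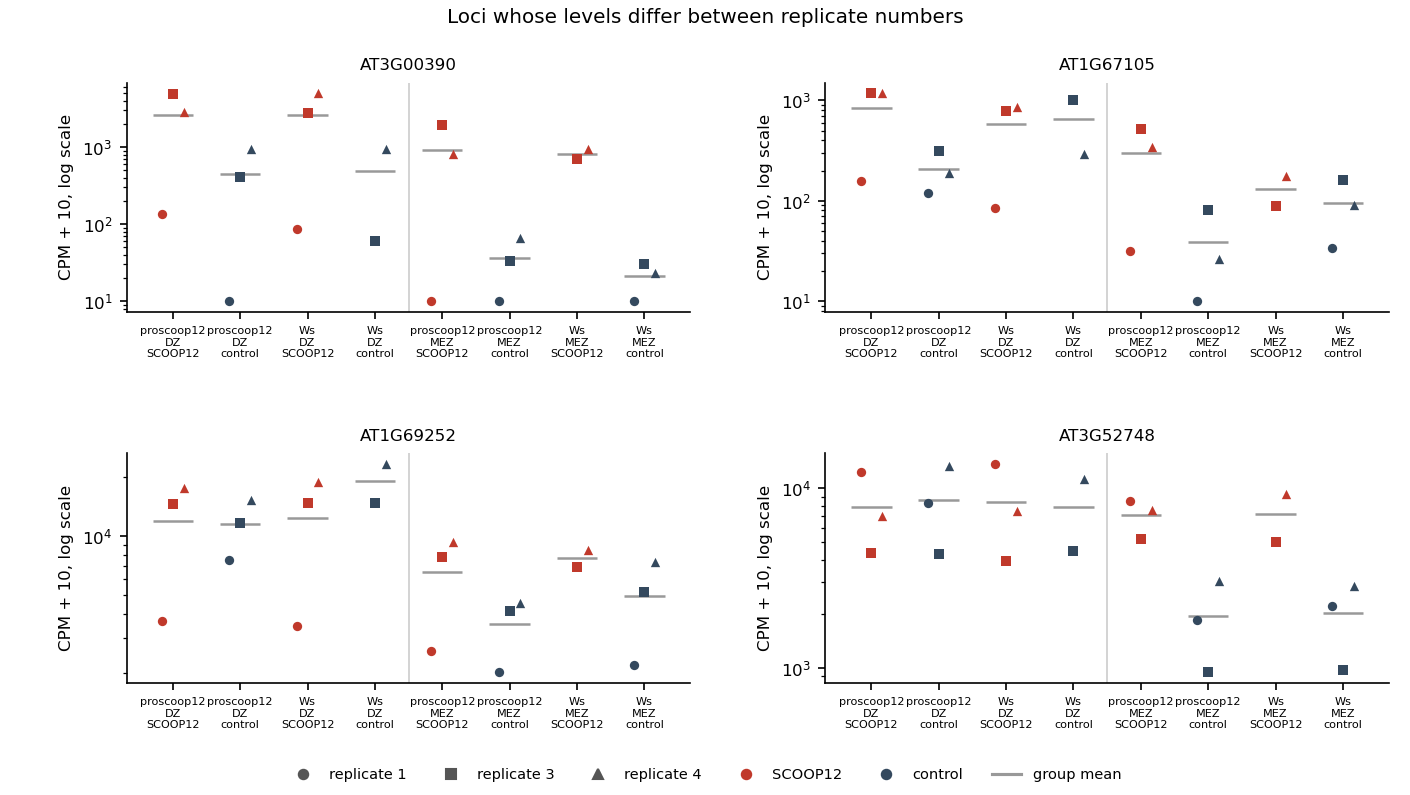
Level as CPM + 10 (vertical axes, logarithmic) of 4 loci in each of the 22 libraries (points, shape by replicate number, red with SCOOP12) by group, with group means as bars. For AT3G00390, AT1G67105 and AT1G69252 replicate 1 is the lowest point of each group that has it, and for AT3G52748 replicate 3 is.

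**Figure D5:**
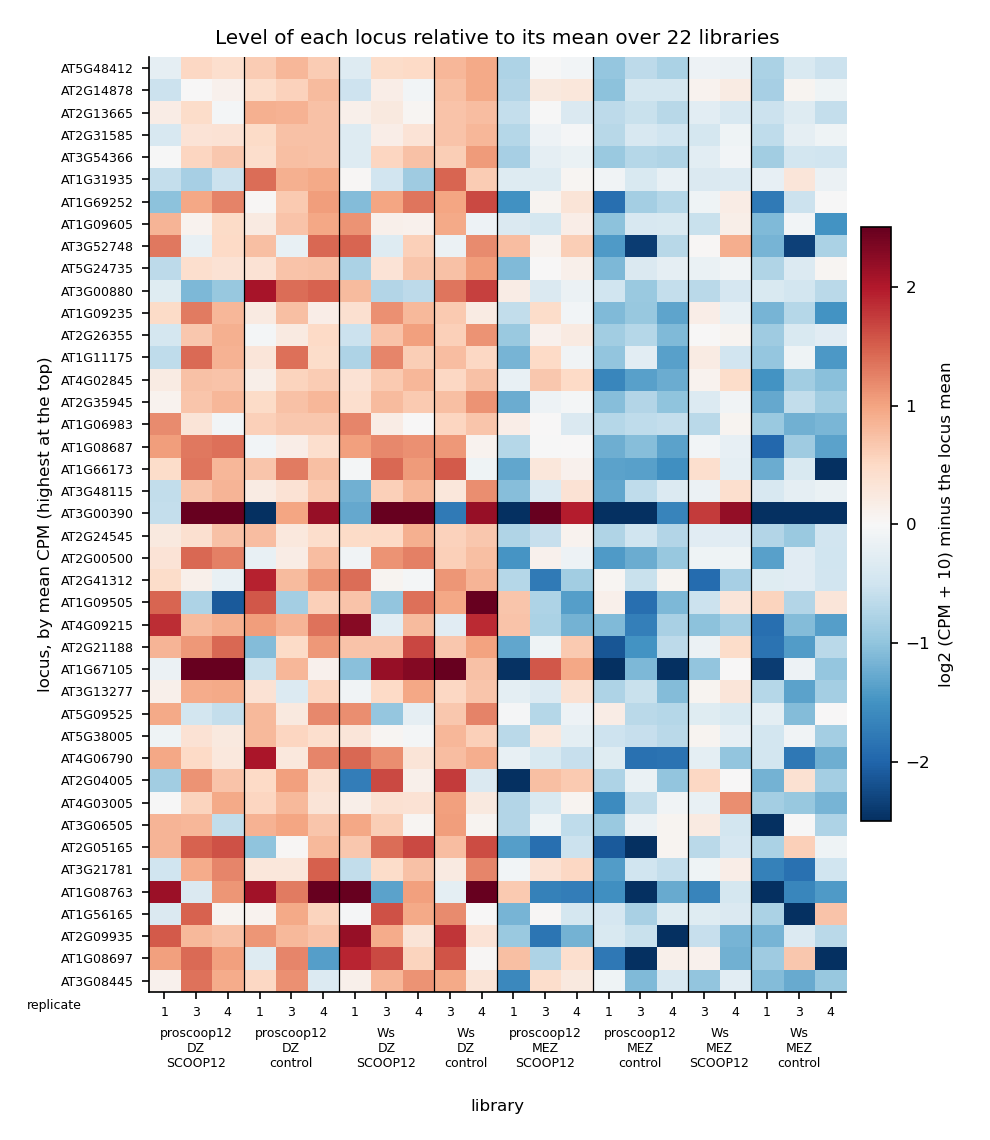
Level of each of the 42 loci (rows, highest mean CPM at the top) in each of the 22 libraries (columns, by group and replicate number), as log2 of (CPM + 10) minus the locus mean over all libraries. Colours stop at 2.5 in either direction, which 29 of 924 cells pass; DZ columns are mostly red and MEZ columns mostly blue in controls, and paler with SCOOP12 in MEZ.

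The comparison of proscoop12 with Ws called 0 of the 42 loci in any of the 4 combinations of zone and treatment. The edgeR test called 0 of all 844 loci in DZ with SCOOP12 and in DZ control (0% each), and 1 in MEZ with SCOOP12 and 1 in MEZ control (0.118% each), none of them among the 42. Without the block, an unadjusted edgeR p under 0.05 was reached by AT3G00880 in DZ with SCOOP12 and AT4G03005 in MEZ with SCOOP12, both lower in proscoop12. It was reached by 0 of the 42 in either control, and DESeq2 called 0 of the 42 in any combination. With the block it was reached by AT3G00880 in DZ with SCOOP12 and AT1G67105 in MEZ with SCOOP12. In controls it was then reached by AT1G09505 and AT2G05165 in DZ and by AT2G05165 and AT1G67105 in MEZ. None of these passed after adjustment. The median log2 fold change of proscoop12 over Ws was -0.06 in DZ with SCOOP12, -0.21 in DZ control, -0.11 in MEZ with SCOOP12 and -0.13 in MEZ control. With the replicate block the medians were -0.03, -0.03, 0.01 and -0.13 in the same order, so the one in MEZ with SCOOP12 turned sign; Ws has no replicate 1 in DZ control or in MEZ with SCOOP12. The difference between the genotypes in the response to SCOOP12 was called for 0 of the 42 loci and 0 of all 844 (0%) in each zone. The same held with the replicate block and by DESeq2. Without the block, 0 in DZ and 1 in MEZ, AT4G03005, had an unadjusted edgeR p under 0.05. With the block AT1G67105 had one in each zone and AT4G03005 did not. For AT3G00880 the difference without the block was -0.76 in DZ (SE 0.45, edgeR adjusted p 1.0). For AT4G02845 it was 0.32 in MEZ (SE 0.49, edgeR adjusted p 1.0). A response called in 1 genotype and not in the other was thus not shown to differ between them.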

How the data were processed

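RNA of root zones of proscoop12 and Ws plants was sequenced in 22 libraries as stranded mRNA libraries, per the labels' protocols. The authors deposited 1 quantification table per library, made with Salmon per the submitters' processing notes, which also name DESeq2; the sources used here give no version, index, annotation, genome build or strand setting. Per the file headers each table gives estimated counts (NumReads) and TPM for 5224 loci; TPM only served to check the tables. Levels printed are CPM of the estimated counts after 6 loci above 2% of any library, which took 80.7% to 90.5% of reads, were dropped. The members and lists were chosen with earlier results of these data known. Every member is named; those called by the test without block and the 3 with the highest mean CPM are given in every library, and AT3G00390, AT1G67105, AT3G52748 and AT1G69252 were added after their values were seen.

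Tests used edgeR 4.0.16 (quasi-likelihood F test, R 4.3.3, limma 3.58.1) on counts rounded to whole numbers, with TMM scaling and filterByExpr (minimum count 10, minimum total 15), 8 group means over all 22 libraries, and Benjamini-Hochberg adjustment over 844 loci, all 42 members included. Standard errors are the size of the fold change (log2) divided by the square root of the F statistic. The procedure was tested on simulated data. Same-numbered libraries deviated together in the proscoop12 comparisons of zone (correlations 0.396 to 0.575), SCOOP12 in DZ (0.255 to 0.450) and SCOOP12 in MEZ (0.126 to 0.358), and between the genotypes in DZ with SCOOP12 (0.459 to 0.677) and MEZ control (0.138 to 0.316), over 3 pairs each, so values with the replicate block, fitted over all 22 libraries, stand beside results they change. The other comparisons have 2 pairs each (0.160 to 0.382). Alternatives were DESeq2 1.42.0, other scalings, no filter, the block, fewer libraries and exchanged labels. The block with libraries left out or labels exchanged was run for proscoop12 only and was added after seeing the data. Loci were matched to RefSeq TAIR10.1 by name (5175 of 5224 with exons); copies were sought with blastn 2.17.0. Depth limits precision: 3 reads, the upper limit for a value of 0, are 18.4 to 40.2 CPM.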

Additional observations from a re-analysis of the deposited data

Results flagged for a closer look

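In 3 loci, each in a single genotype, the SCOOP12 libraries of that genotype moved one way in DZ and the other way in MEZ. They did not overlap with the controls in either zone. In the other genotype the MEZ groups of each locus overlapped. How many of all loci showed such opposite moves was not counted. AT5G48412 had log2 fold changes of -0.72 in DZ and 0.60 in MEZ of Ws. AT2G14878 had -1.08 in DZ and 0.56 in MEZ of Ws. AT3G00880 had -2.52 in DZ and 0.64 in MEZ of proscoop12, of which the DZ change passed. With the replicate block the Ws values were -0.56 in DZ and 0.38 in MEZ for AT5G48412, and -0.85 in DZ, which passed (edgeR adjusted p 0.0225), and 0.33 in MEZ for AT2G14878. The difference between the zones was not tested in any of them, and the controls that chose the loci, high in DZ and low in MEZ, enter each value.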

How the results depend on the processing

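The number of the 42 loci called depended on the processing in every zone and SCOOP12 comparison, and the cause was not tested. The share of all loci called, given above, was counted only for the edgeR test without block and with it, over all 22 libraries. For the other settings it was not counted, so whether calls over all loci moved as well is not known. For the zones under SCOOP12 in proscoop12 (2 called) it was 4 by DESeq2, 7 with no filter, 18 with the replicate block, 1 with labels exchanged, 0 in replicates 1 and 3, 7 without DZ SCOOP12 replicate 1 of both genotypes, and 0 to 4 with 1 library left out; in Ws (1 called) it was 5 by DESeq2, 6 with no filter, 14 with the block, 0 in replicates 1 and 3, 0 without DZ SCOOP12 replicate 1 of both genotypes, 0 on the rule's scale, 0 from the compared groups alone, and 0 to 1 with 1 library left out. For SCOOP12 in DZ of proscoop12 (2 called) it was 4 by DESeq2, 6 with no filter, 11 with the block, 0 with labels exchanged and 2 with any 1 library left out. In Ws (2 called) it was 1 on the rule's scale, 4 with the block, 0 from the compared groups alone, 1 without both doubtful libraries, 0 with labels exchanged, 0 in replicates 1 and 3, and 1 to 2 with 1 library left out. For SCOOP12 in MEZ of proscoop12 (1 called) it was 2 by DESeq2, 6 with no filter, 8 with the block, 0 from the compared groups alone, 0 in replicates 1 and 3, and 0 to 1 with 1 library left out. In Ws (0 called) it was 1 by DESeq2, 1 on the rule's scale, 4 with no filter, 5 with the block, 3 from the compared groups alone, 1 without DZ SCOOP12 replicate 1 of both genotypes, and 0 with any 1 library left out. All 14, 4 and 5 loci called with the block in Ws were among the 18, 11 and 8 called with it in proscoop12. Ws had only 2 pairs of same-numbered libraries, and its block counts were not rerun with libraries left out or labels exchanged. With the block, leaving out 1 library gave 11 to 15, 5 to 10 and 5 to 13 calls in proscoop12 for zone, DZ and MEZ, and the DZ count was 4 without both doubtful libraries and 0 with labels exchanged. The block changed no call between genotypes, where each count stayed at 0 in all alternatives run. None of the fold changes of the called loci reversed. The rule itself kept 36 loci with a pseudocount of 50 CPM, 50 with a mean of at least 50 CPM, 35 with at least 200 CPM, 39 without both doubtful libraries, and 43 with their labels exchanged, 40 of them shared.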
